A study of Mus musculus with 76 samples.

Results

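The genes described here are 7 genes of the type I interferon response and the ubiquitin ligase gene Rnf213, which is itself induced by interferon. They were named as a list: Rnf213, Stat2, Irf9, Ddx58, Ifih1, Eif2ak2, Adar and Bst2. All 8 were found by gene symbol among the 14823 genes of the deposited count table, and all 8 passed the filter on low counts that left 14339 genes for testing. The members were chosen by their differences from the Ctrl group in an earlier comparison of these same libraries, so those differences are given as a description.

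RNA was sequenced from the dorsal forebrain, which gives rise to the cerebral cortex, in embryos of C57BL/6J mice collected on embryonic day 16. The parents, and not the embryos, had been given α-cypermethrin, a pyrethroid insecticide, or vehicle for 28 days before they were mated. The 76 libraries form 7 groups by the exposed parent and by a dose labelled 0.3 or 10 without a unit. Paternal_0.3Cyp had exposed fathers and vehicle-treated mothers (n = 12), Maternal_0.3Cyp had exposed mothers and vehicle-treated fathers (n = 12), and in Both_0.3Cyp both parents received the lower dose (n = 12). The same pairings at the higher dose were Paternal_10Cyp (n = 10), Maternal_10Cyp (n = 8) and Both_10Cyp (n = 10), while both parents of the Ctrl embryos received vehicle (n = 12). Each group holds male and female embryos and libraries of both labelled batches. The labels give no litter, so the p-values treat every embryo as independent, measure only the spread between these libraries, and understate the error if embryos of 1 litter are alike.

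Type I interferon signals through a receptor that activates the kinases Jak1 and Tyk2, which phosphorylate STAT proteins, Stat2 among them. Stat2 and Irf9 are parts of the complex ISGF3, which enters the nucleus and binds interferon-stimulated response elements in the promoters of its target genes. Several members are at the same time parts of the pathway and targets of it. Ddx58 (the sensor RIG-I) and Ifih1 (the sensor MDA5) recognise viral RNA, Eif2ak2 (the kinase PKR) stops translation when it binds double-stranded RNA, Adar edits adenosines in double-stranded RNA, and Bst2 (tetherin) holds budding viruses at the cell surface. In the human population, variants of RNF213 are linked to moyamoya disease, a narrowing of the arteries at the base of the brain.

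The core of an interferon-stimulated response element was looked for in the promoters of the members, since these are the sequences through which ISGF3 acts. The windows were those of RefSeq on GRCm38.p6, from 250 bases before to 50 bases after each annotated start, and the motif was GAAA, any 2 bases, GAAA on either strand. At least 1 match was found in 5 of the 11 windows of the members, against 3.44 percent of all 32851 windows of the same length. By gene, 5 of the 8 members had a match in at least 1 window, against 3.99 percent of 27025 genes. The matching stretches are given 5′ to 3′ on the strand of the gene, with the letters of the match in capitals.
Stat2, + strand, chr10:128270266-128270295: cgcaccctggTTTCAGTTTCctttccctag
Ddx58, - strand, chr4:40239804-40239833: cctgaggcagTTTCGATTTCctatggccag
Ifih1, - strand, chr2:62646206-62646233: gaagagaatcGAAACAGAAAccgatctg
Eif2ak2, - strand, chr17:78882535-78882564: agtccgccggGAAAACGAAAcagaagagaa
Bst2, - strand, chr8:71537580-71537609: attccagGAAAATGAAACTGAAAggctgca

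In Stat2 and Ddx58 the match lies on the strand opposite to the gene, so it reads as its reverse complement. In Bst2 the capitals span a pair of overlapping matches, the first of them 130 bases before the start. The match of Stat2 lies 222 bases before the RefSeq start, and those of Ddx58, Eif2ak2 and Ifih1 begin at bases 2, 18 and 32 after it. No match was found in the windows of Rnf213, Irf9 and Adar (1, 2 and 3 windows), which says only that these letters are not in those windows. The window of Rnf213 is set on a RefSeq start 3001 bases before the GENCODE gene start given below and does not cover it. The windows of Irf9 and Stat2 do not cover the gene start given below either.

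Library totals ran from 17.7 M to 41.4 M counts, with a median of 19.2 M. All 12 markers of dorsal forebrain on the list used, among them Emx1 and Tbr1, were detected. Of the libraries that stand apart, replicates 5 and 6 of Paternal_0.3Cyp had high levels of most members, and replicate 8 of that group was the lowest of the series in 5 of 8 members and the highest in 22.3 percent of all genes. Replicates 4 and 9 of that group and replicate 3 of Ctrl were the highest of the series in 9.88, 7.87 and 7.36 percent of all genes, and dorsal forebrain markers summed to 1692 CPM in replicate 9, below every Ctrl library. Leaving out any 1 of these 3 libraries changed the number of members called in none of the 6 groups. Markers of cycling progenitors and of maturing neurons moved with exposure: 6 of 8 progenitor markers were called higher than in Ctrl in each exposed group except Both_10Cyp, in which 3 were. Of the 8 markers of maturing neurons, 6 to 7 were called lower in every exposed group except Both_10Cyp, in which 2 were. The marker lists were chosen with earlier results of these data known. Nwd2 and Rasgrf2, on the neuron list, had been singled out there for lower levels, so these counts are given as a description. All 9 erythroid markers tested had estimates above 0 in every exposed group, with medians of 0.25 to 0.40 on the log2 scale, and 7 of them were called higher in Paternal_0.3Cyp and 0 to 3 in the other groups. Of the 12 dorsal forebrain markers, 7 were called higher and 1 lower in Maternal_10Cyp, 5 and 1 in Paternal_0.3Cyp, and 1 to 4 and 0 in the other groups. Over all genes 10.5 to 20.4 percent were called higher and 10.8 to 20.4 percent lower, except 2.34 and 1.58 percent in Both_10Cyp. The part of these cells in the results below was not tested. In bulk tissue, fewer cells of a type and less RNA per cell cannot be told apart.

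Levels are given as normalised CPM, the usual measure of a gene's counts relative to the total of its library, with totals scaled by the TMM method. Over the 76 libraries the median level was 112 CPM for Adar, 18.8 CPM for Stat2, 10.1 CPM for Irf9, 3.69 CPM for Rnf213, 3.04 CPM for Eif2ak2, 2.84 CPM for Ddx58, 2.5 CPM for Bst2 and 1.19 CPM for Ifih1. Levels of different genes can be set side by side only per transcript length. Per kilobase of the longest annotated transcript, Adar had a median of 19.0 CPM and stood far above Stat2 with 4.27, Bst2 with 3.15 and Irf9 with 2.61 CPM per kilobase. Ddx58 (0.733), Eif2ak2 (0.705), Rnf213 (0.221) and Ifih1 (0.217 CPM per kilobase) were the 4 lowest. Rnf213, with a transcript of 16716 bases, thus moves from the fourth to the seventh place once length is taken into account.

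The members differed in how much they varied between libraries. Bst2 spanned a 13.8-fold range over the 76 libraries, Rnf213 a 9.90-fold range and Ifih1 an 8.36-fold range, while Stat2 spanned 1.92-fold and Irf9 2.13-fold. The low members rest on few counts: Ifih1 had between 8 and 66 counts in a library of Paternal_0.3Cyp and between 17 and 54 counts in a library of Ctrl, and the part of counting error in the spread was not tested. Adar, with 950 counts in its lowest library, varied 2.77-fold.

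Rnf213 (ENSMUSG00000070327; mm10 chromosome 11, 119393100 to 119487418, + strand) encodes a very large protein with ATPase modules and a RING domain. It was the member furthest below Ctrl. At dose 10 the lowest, median and highest library had 1.56, 2.45 and 5.69 CPM in Paternal_10Cyp, 1.52, 2.53 and 3.95 CPM in Maternal_10Cyp and 2.69, 3.53 and 4.47 CPM in Both_10Cyp. At dose 0.3 they had 1.39, 4.23 and 13.8 CPM in Paternal_0.3Cyp, 1.51, 3.61 and 7.35 CPM in Maternal_0.3Cyp and 2.19, 3.62 and 6.50 CPM in Both_0.3Cyp, against 2.58, 6.05 and 10.8 CPM in Ctrl. Every library of the 3 dose-10 groups lay below the mean of Ctrl, yet all groups overlapped with it: 5 of 10 libraries of Paternal_10Cyp, 4 of 8 of Maternal_10Cyp and 0 of 10 of Both_10Cyp lay below the lowest Ctrl library.

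**Figure D1:**
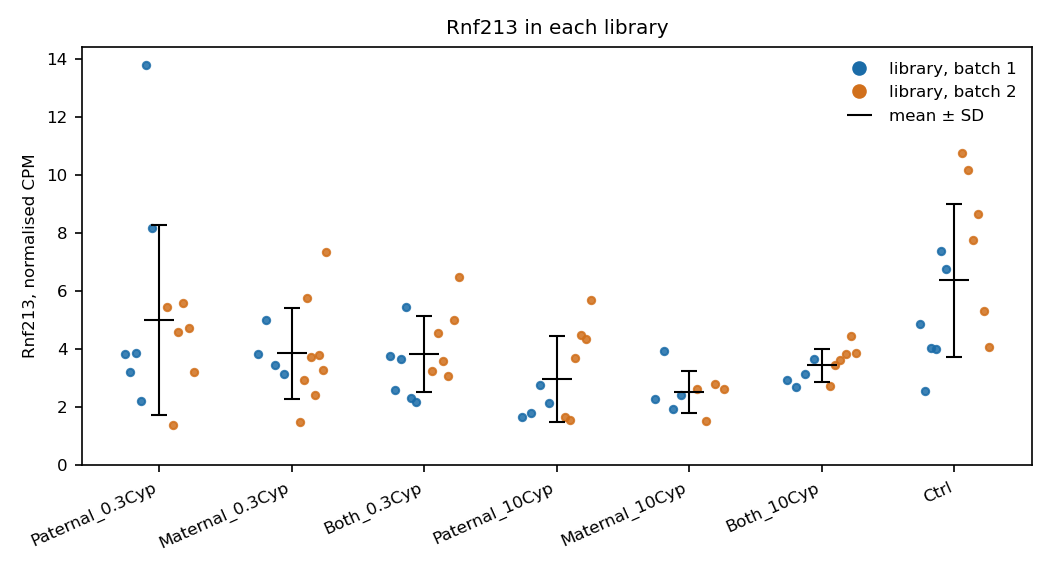
Normalised CPM of Rnf213 (vertical axis) in each of the 76 libraries by group, coloured by batch, with the mean and SD of each group. The libraries of Maternal_10Cyp lie between 1.52 and 3.95 CPM, and those of Ctrl between 2.58 and 10.8 CPM, with the highest Ctrl libraries in batch 2 and 1 library of Paternal_0.3Cyp at 13.8 CPM.

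In order of the group means, Rnf213 had 2.53 ± 0.713 CPM in Maternal_10Cyp (SD, n = 8), 2.99 ± 1.48 CPM in Paternal_10Cyp (n = 10) and 3.45 ± 0.564 CPM in Both_10Cyp (n = 10). The dose-0.3 groups followed with 3.84 ± 1.32 CPM in Both_0.3Cyp, 3.86 ± 1.56 CPM in Maternal_0.3Cyp and 5.01 ± 3.28 CPM in Paternal_0.3Cyp (n = 12 each), and Ctrl came last with 6.38 ± 2.63 CPM (n = 12). Each pair of neighbours in this order differed by less than the SD of either group. On the log2 scale, and with batch and sex as terms of the fit, Rnf213 differed from Ctrl by -1.29 ± 0.28 (SE) in Maternal_10Cyp, -1.07 ± 0.25 in Paternal_10Cyp and -0.90 ± 0.25 in Both_10Cyp. The differences at dose 0.3 were -0.73 ± 0.23 in Maternal_0.3Cyp, -0.73 ± 0.23 in Both_0.3Cyp and -0.32 ± 0.23 in Paternal_0.3Cyp. In Maternal_10Cyp the fitted level was 0.408 times that of Ctrl, with an interval of the log2 difference from -1.83 to -0.75.

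Stat2 and Irf9, subunits of ISGF3, varied little and lay below Ctrl by small amounts. Stat2 (ENSMUSG00000040033; chromosome 10, 128270559 to 128292849, + strand) had a lowest, median and highest library of 14.8, 16.7 and 20.7 CPM in Maternal_10Cyp and 16.0, 17.6 and 21.1 CPM in Paternal_10Cyp, against 17.0, 21.5 and 24.3 CPM in Ctrl. Of the 8 libraries of Maternal_10Cyp, 6 lay below the lowest Ctrl library and the other two inside the range of Ctrl. The log2 difference from Ctrl was -0.29 ± 0.08 in Maternal_10Cyp and -0.22 ± 0.07 in Paternal_10Cyp, and between -0.16 and -0.08 in the other 4 exposed groups.

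Irf9 (ENSMUSG00000002325; chromosome 14, 55603571 to 55610030, + strand), the DNA-binding subunit of ISGF3, had a lowest, median and highest library of 7.81, 8.96 and 10.3 CPM in Maternal_10Cyp, against 9.77, 11.9 and 12.2 CPM in Ctrl. All but 1 of the 8 libraries of Maternal_10Cyp lay below the lowest Ctrl library. The log2 difference was -0.32 ± 0.10 in Maternal_10Cyp, -0.21 ± 0.09 in both other dose-10 groups, and between -0.14 and -0.08 at dose 0.3. Exons of Irf9 overlap those of Rnf31 on the same strand, and Rnf31 itself differed from Ctrl by -0.07 to -0.03 on the log2 scale and was called in none of the 6 groups.

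The RNA sensors Ddx58 and Ifih1 had larger estimated differences from Ctrl than the transducers in each exposed group, a contrast that was not tested. Ddx58 (ENSMUSG00000040296; chromosome 4, 40203773 to 40239828, - strand) had a lowest, median and highest library of 1.71, 2.51 and 3.72 CPM in Maternal_10Cyp and 1.83, 2.58 and 4.05 CPM in Both_0.3Cyp, against 2.62, 3.70 and 4.94 CPM in Ctrl. The groups overlapped, with 5 of 8 libraries of Maternal_10Cyp and 6 of 12 of Both_0.3Cyp below the lowest of Ctrl. The log2 differences from Ctrl were -0.55 ± 0.18 in Maternal_10Cyp, -0.48 ± 0.16 in Both_0.3Cyp, -0.40 ± 0.16 in Both_10Cyp and -0.34 ± 0.16 in Paternal_10Cyp. Those of Maternal_0.3Cyp and Paternal_0.3Cyp were -0.21 ± 0.16 and -0.19 ± 0.15.

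Ifih1 (ENSMUSG00000026896; chromosome 2, 62595798 to 62646255, - strand) was the least abundant member. Its lowest, median and highest library had 0.643, 1.08 and 1.21 CPM in Maternal_10Cyp, 0.570, 1.09 and 1.86 CPM in Both_10Cyp and 0.852, 1.13 and 1.5 CPM in Paternal_10Cyp, against 0.893, 1.82 and 2.79 CPM in Ctrl. All libraries of Maternal_10Cyp and Paternal_10Cyp and 9 of 10 of Both_10Cyp lay below the mean of Ctrl, but only 2 to 3 in each group lay below its lowest library. The log2 difference from Ctrl was -0.76 ± 0.24 in Maternal_10Cyp, -0.61 ± 0.22 in Both_10Cyp and -0.55 ± 0.22 in Paternal_10Cyp, and between -0.29 and -0.16 at dose 0.3.

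Of the 3 remaining members, Adar was called lower in 5 of the 6 exposed groups and Bst2 and Eif2ak2 in none. In the 5 groups 10.8 to 20.4 percent of all genes were called lower, and the groups share the Ctrl libraries. Adar (ENSMUSG00000027951; chromosome 3, 89715022 to 89753446, + strand) had a lowest, median and highest library of 95.8, 98.7 and 109 CPM in Maternal_10Cyp, against 107, 132 and 153 CPM in Ctrl. In Maternal_10Cyp 6 of 8 libraries lay below the lowest Ctrl library, and its spread was the narrowest of the 7 groups with a coefficient of variation of 5.09 percent. The log2 difference from Ctrl was -0.37 ± 0.08 in Maternal_10Cyp, -0.31 ± 0.08 in Paternal_10Cyp and between -0.25 and -0.21 in the other 4 groups. Its exons overlap those of the antisense gene Chrnb2, whose log2 differences lay between -0.04 and 0.00 with no call.

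Bst2 (ENSMUSG00000046718; chromosome 8, 71534255 to 71537456, - strand) had a lowest, median and highest library of 1.23, 2.01 and 3.20 CPM in Maternal_10Cyp, 1.49, 2.37 and 3.38 CPM in Both_10Cyp and 1.67, 2.13 and 2.75 CPM in Paternal_10Cyp, against 1.31, 3.35 and 4.57 CPM in Ctrl. Its log2 differences at dose 10 were -0.55 ± 0.29 in Maternal_10Cyp, -0.41 ± 0.27 in Paternal_10Cyp and -0.37 ± 0.26 in Both_10Cyp. At dose 0.3 they were -0.23 ± 0.25 in Both_0.3Cyp, -0.10 ± 0.25 in Maternal_0.3Cyp and 0.16 ± 0.25 in Paternal_0.3Cyp. None was called.

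Eif2ak2 (ENSMUSG00000024079; chromosome 17, 78852564 to 78882573, - strand) had estimates on both sides of Ctrl. Its lowest, median and highest library had 1.97, 2.52 and 4.0 CPM in Maternal_10Cyp, against 1.78, 2.98 and 5.05 CPM in Ctrl, so that the exposed libraries lay inside the range of Ctrl. The log2 difference was -0.29 ± 0.18 in Maternal_10Cyp, -0.13 ± 0.16 in Paternal_10Cyp and -0.11 ± 0.16 in Both_10Cyp, and 0.02 to 0.11 at dose 0.3. Eif2ak2 was called in none of the 6 groups.

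**Figure D2:**
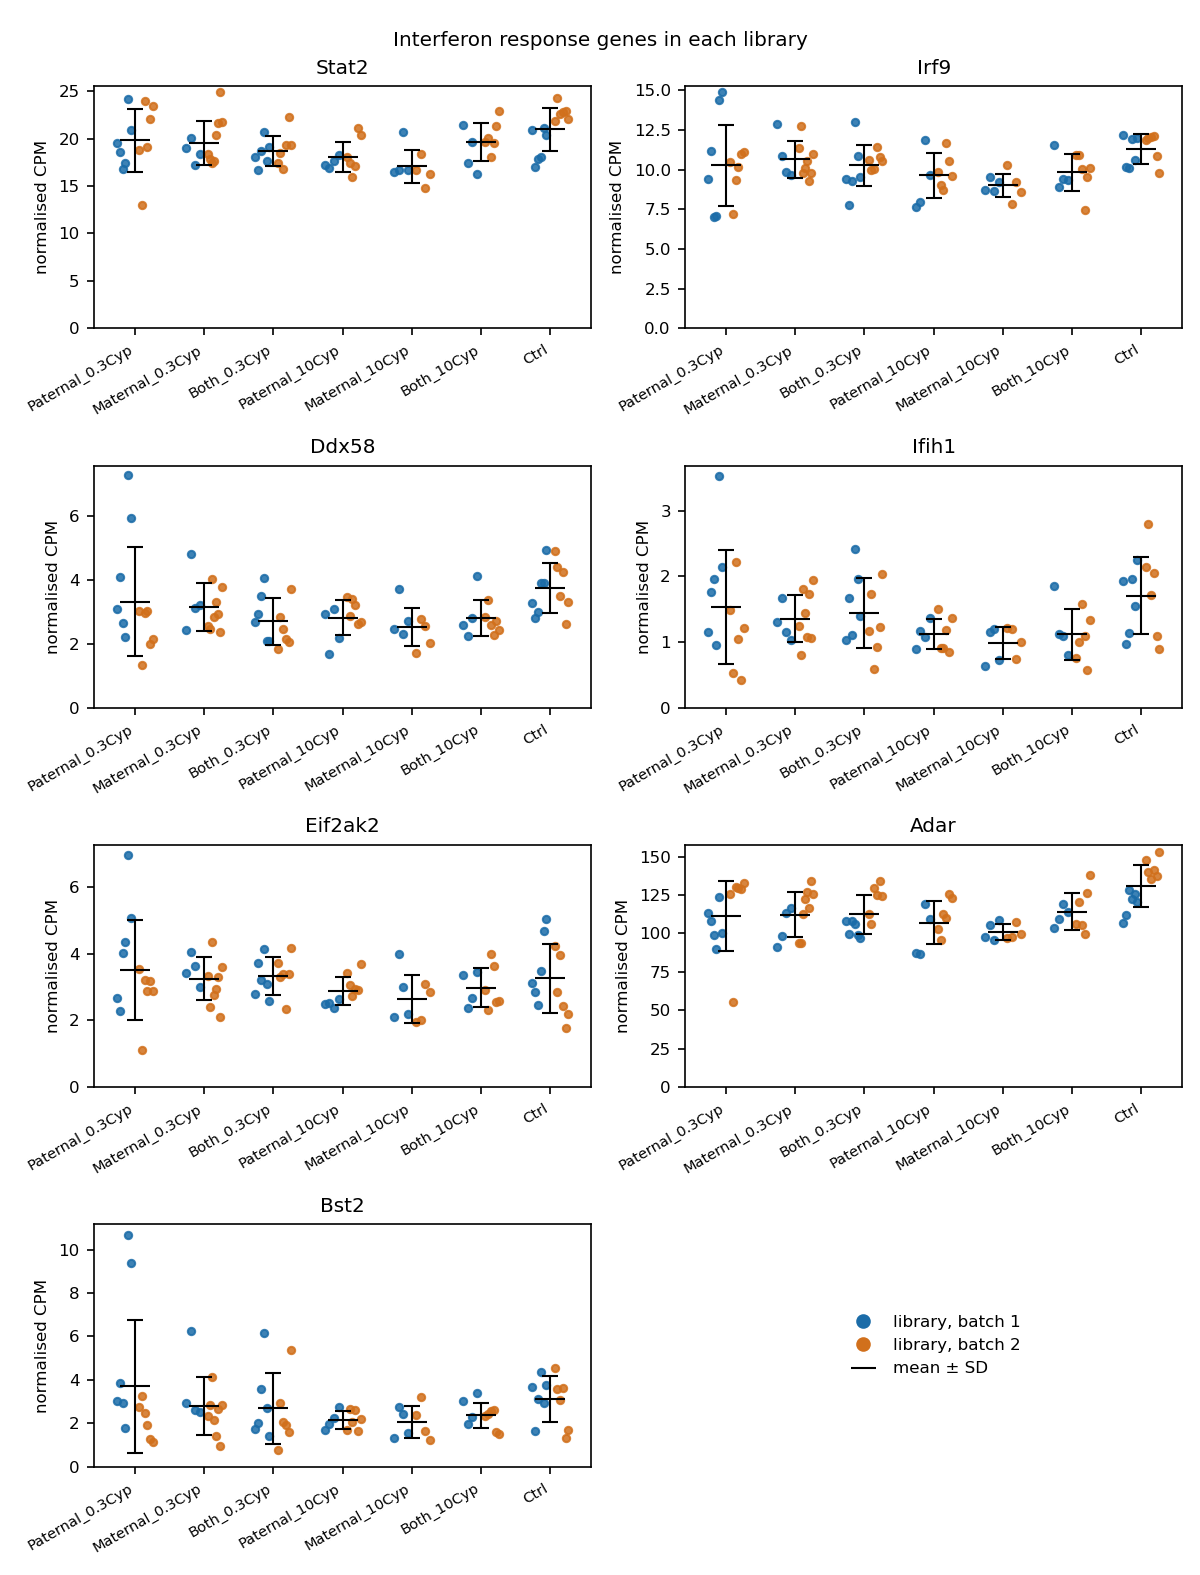
Normalised CPM (vertical axes, each from 0) of the 7 other members in each library by group, coloured by batch, with the mean and SD of each group. Adar, Stat2 and Irf9 vary little within most groups, while Paternal_0.3Cyp holds a pair of libraries above all other libraries for Bst2 (10.7 and 9.39 CPM), Ddx58 (7.28 and 5.93 CPM) and, by less, Irf9 (14.4 and 14.9 CPM).

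Counted over the list, and with a gene called where edgeR's quasi-likelihood test gave an adjusted p (Benjamini-Hochberg, over all 14339 genes) under 0.05, all calls of members were for lower levels than in Ctrl. In Maternal_10Cyp 6 of 8 members were called lower (all except Eif2ak2 and Bst2), where 20.4 percent of all tested genes were called lower and 40.8 percent in either direction. In Paternal_10Cyp 3 were called lower (Rnf213, Stat2 and Adar), where 10.8 percent of all genes were called lower and 21.5 percent in either direction. In Both_10Cyp 1 was called lower (Rnf213), where 1.58 percent of all genes were called lower and 3.91 percent in either direction. In Both_0.3Cyp 3 were called lower (Rnf213, Ddx58 and Adar), where 11.8 percent of all genes were called lower and 22.3 percent in either direction. In Maternal_0.3Cyp 2 were called lower (Rnf213 and Adar; 12.8 percent of all genes lower, 23.7 percent in either direction) and in Paternal_0.3Cyp 1 (Adar; 12.2 percent lower, 27.6 percent in either direction). The median log2 difference of the members was -0.46 in Maternal_10Cyp, -0.32 in Paternal_10Cyp, -0.29 in Both_10Cyp, -0.22 in Both_0.3Cyp, -0.16 in Maternal_0.3Cyp and -0.15 in Paternal_0.3Cyp, while the median of all genes lay between -0.01 and 0.01. Since the members were named with these comparisons known, nothing is read from the counts, and the 6 comparisons share the 12 Ctrl libraries.

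**Figure D3:**
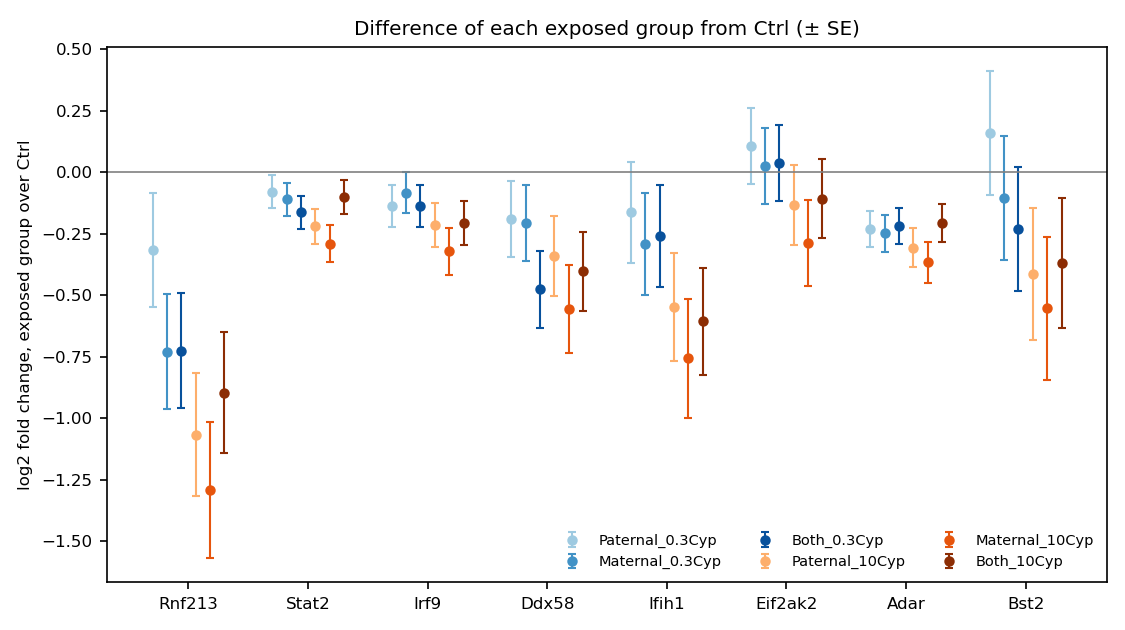
Log2 fold change of each exposed group over Ctrl (vertical axis, points) with its standard error (bars) for the 8 members. Rnf213 shows the lowest points, down to -1.29 in Maternal_10Cyp, and Eif2ak2 and Bst2 include points above 0 at dose 0.3.

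The calls rested on the model and, in places, on single libraries. With 2 surrogate variables added as terms, no member was called in any of the 6 groups, although Rnf213 stayed at -1.16 ± 0.31 in Maternal_10Cyp and at -0.96 ± 0.27 in Paternal_10Cyp, and between 0 and 59 of all genes were called. Without replicate 7 of Ctrl, the Ctrl library with the highest Rnf213 (10.8 CPM), 1 member was called in Maternal_0.3Cyp, 0 in Both_0.3Cyp and 0 in Both_10Cyp. The share of all genes called in that fit was 15.2 percent in Maternal_0.3Cyp (23.7 percent with all libraries), 14.6 percent in Both_0.3Cyp (22.3 percent) and 0.565 percent in Both_10Cyp (3.91 percent). Rnf213 in Both_10Cyp was also not called without Ctrl replicate 8 or without Both_10Cyp replicate 2, 7 or 8, although its log2 difference stayed between -0.91 and -0.80 in those 5 fits, in which 27 to 247 of all genes were called. Adar in Both_0.3Cyp was not called without Ctrl replicate 12 or Both_0.3Cyp replicate 8, with differences of -0.20 in both fits. Adar in Paternal_0.3Cyp was not called without replicate 8 of that group, where its difference was -0.16. Without that same library, Ifih1 and Adar were also called in Both_10Cyp, at -0.61 and -0.20, where 14.8 percent of all genes were. Rnf213 in Paternal_0.3Cyp was called at -0.58 without replicate 5.

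Other members gained a call when 1 library was left out. Stat2 in Both_0.3Cyp was called without replicate 2 or 4 of Ctrl, replicate 8 of Paternal_0.3Cyp, or replicate 4 or 11 of its own group, at -0.19 to -0.16. Ifih1 in Paternal_10Cyp was called without replicate 2 or 12 of Ctrl or replicate 5 or 8 of Paternal_0.3Cyp, at -0.61 to -0.54. Irf9 in Paternal_10Cyp was called at -0.25 without its replicate 3 or 8. In Maternal_10Cyp the count of members called was 6 whichever of the 76 libraries was left out, while 5068 to 6473 of all genes were called.

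The doses can be set against each other without the Ctrl libraries. The exposed libraries compared here are nonetheless those whose differences from Ctrl served to choose the members. The values between doses are therefore also given as a description. No member was called between dose 10 and dose 0.3 with all 76 libraries, whether the fathers, the mothers or both were exposed. For Rnf213 the log2 difference of dose 10 from dose 0.3 was -0.75 ± 0.25 in paternal exposure (edgeR, adjusted p = 0.276; interval from -1.24 to -0.25) and -0.56 ± 0.28 in maternal exposure (adjusted p = 0.553; interval from -1.10 to -0.02). When both parents were exposed the difference was -0.17 ± 0.25 (adjusted p = 0.999). Without replicate 8 of Paternal_0.3Cyp, which had the lowest Rnf213 of all libraries (1.39 CPM), the paternal difference was -0.85 and its adjusted p 0.0484 (edgeR). Of all genes 301 (2.10 percent) were called in that fit, against 9 with all libraries. Without replicate 5 of Paternal_0.3Cyp, the library highest in Rnf213, the paternal difference was -0.51, and without replicates 5 and 6 of that group -0.34, with adjusted p of 0.484 and 0.672 (edgeR). With batch 1 alone the paternal difference was -1.41 ± 0.40 and with batch 2 alone -0.20 ± 0.31, with adjusted p of 0.153 and 0.889. The estimates of all 8 members were below 0 in the paternal and in the maternal comparison, and 5 of 8 when both parents were exposed. Over all genes 58.9, 52.5 and 47.5 percent of the estimates were below 0. In the same order, 15, 16 and 6 of 16 endothelial markers and 11, 12 and 13 of 16 microglia and macrophage markers were below 0. Of the 12 dorsal forebrain markers 4, 2 and 4 were. The signs are thus not particular to the members, and the part of these cells was not tested. The members are also correlated with each other, so their signs are not separate observations. At an unadjusted p under 0.05, 3 members passed in the paternal comparison, 3 in the maternal and 0 with both exposed, while 1250, 1291 and 414 of all genes did. Over all genes the calls between doses were 9 (0.0628 percent) in paternal exposure, 0 in maternal exposure and 1 (0.00697 percent) when both were exposed.

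No member was called between mothers and fathers as the exposed parent, at either dose, and none had an unadjusted p under 0.05. Over all genes 1 (0.00697 percent) was called at dose 0.3 and 0 at dose 10, while 582 and 718 had an unadjusted p under 0.05. For Rnf213 the log2 difference of maternal from paternal exposure was -0.41 ± 0.24 at dose 0.3 (edgeR, adjusted p = 1.000) and -0.23 ± 0.29 at dose 10 (adjusted p = 0.872), with intervals from -0.87 to 0.05 and from -0.79 to 0.33. With both parents exposed at dose 10, the estimates of all 8 members lay above the sum of the maternal and paternal differences, while 46.8 percent of all genes lay below it. This departure from the sum was 1.46 ± 0.38 on the log2 scale for Rnf213, 0.47 ± 0.12 for Adar and 0.41 ± 0.10 for Stat2, the 3 members that were called, where 14 percent of all genes were called higher than the sum, 13.3 percent lower and 27.2 percent in either direction. It is built from the differences from Ctrl by which the members were chosen and is given as a description. At dose 0.3 no member and no other gene was called for such a departure, while 1 member (Adar, at 0.26 ± 0.11) and 3659 genes had an unadjusted p under 0.05.

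No member was called between male and female embryos. The largest estimate, male over female, was that of Bst2 at 0.29 ± 0.15 on the log2 scale (edgeR, adjusted p = 0.933), the 1 member with an unadjusted p under 0.05. Of all genes, 0.0907 percent were called, 0.0418 percent higher and 0.0488 percent lower in males, and 586 had an unadjusted p under 0.05. A test of whether the 6 differences from Ctrl depended on sex called no member and no other gene, and 0 members and 367 genes had an unadjusted p under 0.05. Batch 2 differed from batch 1 by 0.15 ± 0.04 for Adar (adjusted p = 0.00583) and by -0.43 ± 0.15 for Bst2 (adjusted p = 0.0245), and of all genes 12.7 percent were called higher and 12.3 percent lower in batch 2, 25.0 percent in all. The 6 other members were not called between batches.

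The differences from Ctrl were also fitted within each batch, in 1 fit of all 76 libraries with a mean for each group and batch. Within batch 1, where each group has 4 or 6 libraries, no member was called in any exposed group. Of all genes, 19 (0.133 percent) were called in Maternal_10Cyp within batch 1, 1 (0.00697 percent) in Paternal_10Cyp and in Paternal_0.3Cyp, and 0 in the other 3 groups. Within batch 2 the members called were 4 in Maternal_10Cyp (33.2 percent of all genes), 3 in Paternal_10Cyp (18.6 percent) and 2 in Both_10Cyp (18.4 percent). At dose 0.3 they were 2 in Maternal_0.3Cyp (21.1 percent), 2 in Paternal_0.3Cyp (16.6 percent) and 0 in Both_0.3Cyp (10.9 percent). The 3 calls of Both_0.3Cyp with both batches together were thus made within neither batch in this fit. The median log2 difference of the members in Paternal_10Cyp was -0.50 within batch 1 and -0.33 within batch 2. Rnf213 in Maternal_10Cyp differed from Ctrl by -0.89 ± 0.38 within batch 1 and by -1.69 ± 0.39 within batch 2, and in Paternal_10Cyp by -1.22 ± 0.39 and -1.09 ± 0.32. In Paternal_0.3Cyp the signs were opposite, with 0.22 ± 0.32 in batch 1 and -0.89 ± 0.32 in batch 2. Ctrl itself had 4.95 ± 1.82 CPM of Rnf213 in batch 1 and 7.80 ± 2.65 CPM in batch 2 (SD, n = 6 each). A joint test of whether the differences depended on batch called no member and no other gene; the smallest unadjusted p of a member was 0.0744 for Ddx58 (adjusted p = 0.748, edgeR), and 950 genes had one under 0.05.

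For every member except Adar and Stat2, the highest library of the series was in Paternal_0.3Cyp; for Adar it was in Ctrl and for Stat2 in Maternal_0.3Cyp. Replicate 5 of Paternal_0.3Cyp, a male embryo of batch 1, had the highest level of all 76 libraries in 5 of 8 members, with 13.8 CPM of Rnf213, 7.28 CPM of Ddx58, 3.53 CPM of Ifih1, 6.96 CPM of Eif2ak2 and 10.7 CPM of Bst2. Replicate 6 of the same group, also a male of batch 1, had 8.18 CPM of Rnf213, the highest Irf9 (14.9 CPM) and the second highest Ddx58, Eif2ak2 and Bst2 (9.39 CPM). The next highest Bst2 in the series was 6.24 CPM, in a library of Maternal_0.3Cyp. Adar and Stat2 of these libraries lay within the range of the other groups, with 124 and 100 CPM of Adar.

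The same pair of libraries stood out in other interferon-induced genes. Replicates 5 and 6 had 5.73 and 4.72 CPM of Irf7, the master regulator of interferon production, against a median of 1.07 CPM over the 76 libraries. Usp18, which ends interferon signalling at the receptor, had 8.03 and 5.71 CPM against a median of 0.320 CPM, and the next highest library of the series, in Ctrl, had 2.95 CPM. Of 53 antiviral effector and interferon-induced GTPase genes tested, 23 (43.4 percent) were highest of all libraries in replicate 5 and 6 in replicate 6, while over all genes replicate 5 was highest in 0.656 percent and replicate 6 in 0.844 percent. Microglia markers summed to 126 and 166 CPM in replicates 5 and 6, against a range of 105 to 146 CPM in Ctrl, and endothelial markers to 323 and 413 CPM, against 350 to 536 CPM in Ctrl. No marker of either list was at 0 in all libraries, and the part of these cells in the levels was not tested.

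**Figure D4:**
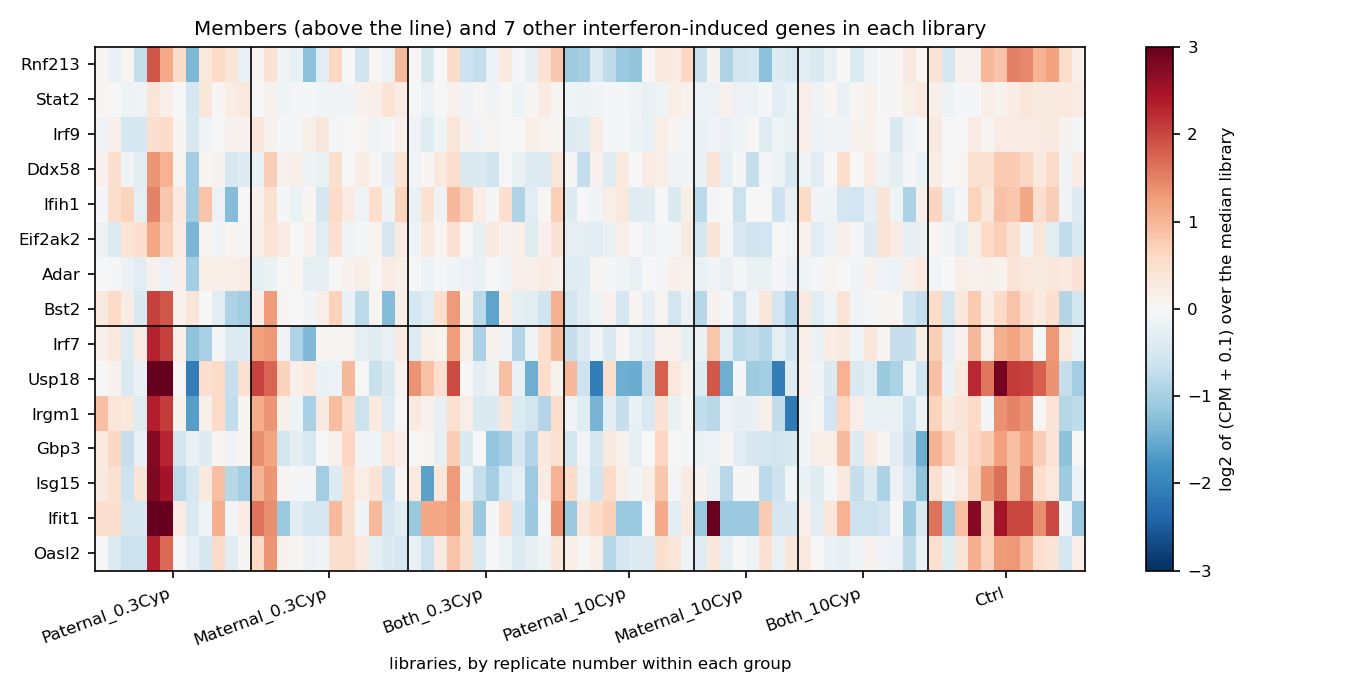
Level of the 8 members (above the horizontal line) and of 7 other interferon-induced genes (below it) in each library, as log2 of CPM plus 0.1 over the median library, with the libraries of each group by replicate number from left to right. Replicates 5 and 6 of Paternal_0.3Cyp form a dark red stripe through most genes, with Usp18 at 8.03 and 5.71 CPM, and several Ctrl libraries are red for Rnf213, Irf7 and Usp18.

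Leaving out these 2 libraries changed the description of Paternal_0.3Cyp. Over the other 10 libraries Rnf213 averaged 3.81 ± 1.35 CPM, Bst2 2.44 ± 0.880 CPM and Ddx58 2.66 ± 0.762 CPM (SD), against 6.38 ± 2.63, 3.11 ± 1.06 and 3.73 ± 0.782 CPM in Ctrl. With them, Rnf213 had averaged 5.01 ± 3.28 CPM and Bst2 3.70 ± 3.07 CPM. The number of members called in Paternal_0.3Cyp was 4 without the pair (23.6 percent of all genes) and 1 with it (27.6 percent). That in Paternal_10Cyp was 5 without the pair (21.6 percent of all genes) and 3 with it (21.5 percent). In replicate 8 of this group Rnf213 (1.39 CPM), Stat2 (13 CPM), Ddx58 (1.34 CPM), Eif2ak2 (1.1 CPM) and Adar (55.2 CPM) were the lowest of all libraries. Its erythroid markers summed to 3753 CPM, against 1365 to 1973 CPM in Ctrl, and its dorsal forebrain markers to 2889 CPM, against 2197 to 4195 CPM in Ctrl, and their part was not tested.

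Pairs of members mostly had positive correlations within groups. After group, batch and sex had been removed from the log2 levels, 27 of the 28 pairs of members had a positive Pearson correlation over the 76 libraries, with a median r of 0.425, and 24 a positive Spearman correlation. By Pearson's r 25 pairs had a Benjamini-Hochberg adjusted permutation p under 0.05, and 18 pairs did by Spearman's rho, whose median was 0.307. Over all pairs of the 14339 tested genes, taken the same way, 49.5 percent had a positive Pearson correlation and the median r was -0.0039. The median absolute r was 0.199, and 9.28 percent had an r at or above the median of the members, so that single pairs of that size are common. The permutation test was not run over all pairs. The counts of 25 and 18 pairs therefore have no share of all pairs beside them, and nothing is read from them. The closest pair was Rnf213 and Ddx58, with r = 0.678 (adjusted permutation p = 2.8e-05, the raw p of 1e-05 being the smallest the permutations can give) and rho = 0.574 (adjusted permutation p = 9.33e-05). Without the 2 libraries farthest from the median in Rnf213 this r was 0.568, without replicates 5 and 6 of Paternal_0.3Cyp 0.604, and within batches 1 and 2 it was 0.810 and 0.563. The median r over the pairs was 0.365 without the Paternal_0.3Cyp pair, 0.543 in batch 1 and 0.351 in batch 2. It was 0.344 without the 2 libraries farthest from the median in the first-listed gene of each pair, chosen anew for each such gene. Adar and Bst2 were the pair with a negative r (-0.107, adjusted permutation p = 0.366).

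The genes whose pattern was most like that of Rnf213 were found over all 14338 other genes by the Pearson correlation of log2 levels over 76 libraries, with batch and sex removed. Among the 5 most alike were the transcription factor gene Irf7 (r = 0.735), the histone methyltransferase gene Ash1l (0.711), Usp18 (0.708) and the cholesterol exporter gene Abca1 (0.705). With group removed as well, these values were 0.686, 0.653, 0.646 and 0.620. With batch and sex alone removed, Ddx58 ranked eighth (0.701), Adar 78th and Bst2 582nd, the last of the members. With group removed as well, Stat2 was the last of the members at rank 847 (r = 0.447), and Bst2 was at rank 435 (r = 0.499). Without replicates 5 and 6 of Paternal_0.3Cyp the values of Abca1 and Ash1l were 0.754 and 0.743 and those of Irf7 and Usp18 were 0.678 and 0.652.

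Beyond the members, 155 other genes of the interferon system were taken in 8 lists by function, of which 140 are in the table and 131 were tested. In Maternal_10Cyp 26 of them were called lower and 15 higher, where 20.4 percent of all genes were called in each direction. The counts lower and higher were 7 and 10 in Paternal_10Cyp (10.8 and 10.7 percent of all genes), and 5 and 1 in Both_10Cyp (1.58 and 2.34 percent). At dose 0.3 they were 8 and 8 in Both_0.3Cyp (11.8 and 10.5 percent), 7 and 12 in Maternal_0.3Cyp (12.8 and 10.9 percent) and 5 and 14 in Paternal_0.3Cyp (12.2 and 15.4 percent). These counts moved with single libraries. When 1 library was left out, the number called in either direction ranged from 0 (without replicate 2, 7 or 8 of Both_10Cyp or replicate 7, 8 or 12 of Ctrl) to 15 (without replicate 8 of Paternal_0.3Cyp) in Both_10Cyp, where it was 6 with all libraries. In Paternal_10Cyp it was 17 and ranged from 10 to 26, in Both_0.3Cyp 16 and from 9 to 23, in Maternal_0.3Cyp 19 and from 9 to 24, and in Paternal_0.3Cyp 19 and from 10 to 24. In Maternal_10Cyp it was 41 and ranged from 33 to 46. The highest counts of Maternal_0.3Cyp, Both_0.3Cyp (also without replicate 5 of Ctrl) and Paternal_10Cyp were those without replicate 8 of Paternal_0.3Cyp, and the same library gave the lowest count of Paternal_0.3Cyp. The lowest counts of Maternal_0.3Cyp and Both_0.3Cyp were those without replicate 7 of Ctrl, and the lowest of Paternal_10Cyp those without replicate 2 or 5 of that group. With 2 surrogate variables 0 of the 131 genes were called in each of the 6 groups. The median log2 difference of the 131 genes was -0.15 in Maternal_10Cyp, where that of all genes was -0.01.

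The lists differed in the direction of their calls in Maternal_10Cyp, where 20.4 percent of all genes were called lower and 20.4 percent higher. Of the 11 interferon-induced GTPases tested, proteins that attack the compartments of intracellular microbes, 7 were called lower in Maternal_10Cyp and none higher, with a median log2 difference of -0.88. Irgm1 had 0.903 ± 0.380 CPM in Maternal_10Cyp, against 2.02 ± 1.07 CPM in Ctrl (SD; log2 difference -1.16 ± 0.34, adjusted p = 0.00518, edgeR). Gbp3 had 0.577 ± 0.108 CPM in Maternal_10Cyp, against 1.25 ± 0.461 CPM in Ctrl (log2 difference -1.08 ± 0.34, adjusted p = 0.00857). In the other exposed groups 0 to 1 of the GTPases was called lower, where 1.58 to 12.8 percent of all genes were. Their median was -0.61 in Both_10Cyp, -0.53 in Paternal_10Cyp, -0.44 in Both_0.3Cyp, -0.09 in Maternal_0.3Cyp and 0.08 in Paternal_0.3Cyp.

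Among the 42 induced antiviral effectors tested, 6 were called lower in Maternal_10Cyp and none higher. Beside each count of this paragraph stand the 20.4 percent of all genes called lower in Maternal_10Cyp and the 20.4 percent called higher. Zc3hav1, which binds CpG-rich viral RNA, differed by -0.86 ± 0.20 (adjusted p = 0.000777, edgeR), and Ifi44 by -1.84 ± 0.58 (adjusted p = 0.0091) at means of 0.147 CPM in Maternal_10Cyp and 0.556 CPM in Ctrl. Of the 19 JAK-STAT transducers and regulators, 6 were called lower, among them Jak1 at -0.34 ± 0.07 and Jak2 at -0.16 ± 0.05, and 2 higher. Of the 16 nucleic acid sensors and adaptors 1 was called lower (Trim25, which activates the protein of Ddx58, at -0.44 ± 0.15) and 1 higher (the helicase gene Ddx3x at 0.14 ± 0.05). Of the 13 genes of double-stranded RNA binding and of the eIF2α kinases, 3 were called lower, among them the editing enzyme gene Adarb1 at -0.40 ± 0.09, and 4 higher, among them Eif2s1, which encodes eIF2α itself, at 0.19 ± 0.04. In antigen presentation 2 of 14 genes were called lower and 2 higher: Tap2, a peptide transporter, differed by -0.83 ± 0.22 and Psme2, a proteasome activator subunit, by 0.31 ± 0.08. None of the 6 ligand and receptor genes tested was called in Maternal_10Cyp, with Ifnar2 at 0.11 ± 0.06. In the list of linear ubiquitin and ubiquitin-conjugating enzymes 6 of 10 were called higher, among them Otulin at 0.35 ± 0.07, and 1 lower, Cyld at -0.24 ± 0.07.

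**Figure D5:**
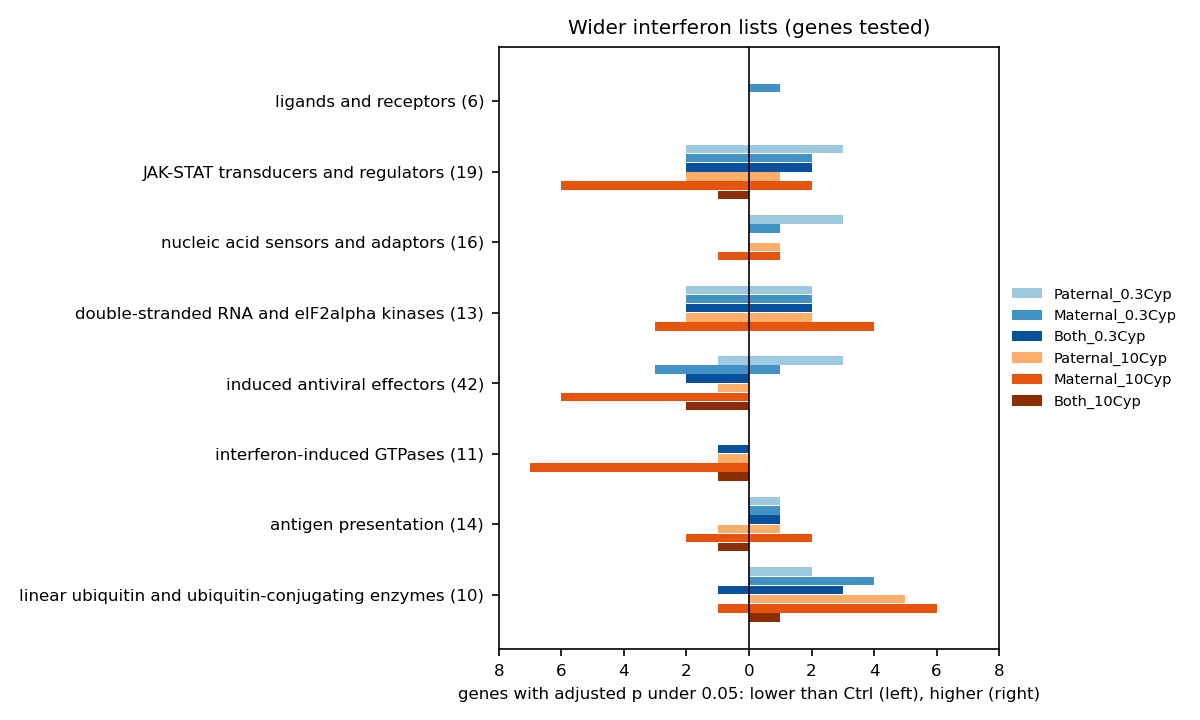
Number of genes in each of the 8 interferon lists (rows, number tested in parentheses) called lower (left of 0) and higher (right of 0) than Ctrl in each exposed group. The longest bar to the left is that of the GTPases in Maternal_10Cyp with 7 of 11 genes, and the ubiquitin list extends mostly to the right, to 6 genes in Maternal_10Cyp. Over all genes 20.4 percent were called in each direction in that group.

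Between doses no gene of these 131 was called in any of the 3 comparisons. Of the markers of other cell types, those of microglia and macrophages had 0 of 16 called lower in every exposed group and 0 to 4 called higher. Over all genes 1.58 to 20.4 percent were called lower and 2.34 to 20.4 percent higher. Endothelial markers had 3 of 16 called lower in Maternal_10Cyp, near the 20.4 percent of all genes called lower there. In Paternal_10Cyp 3 of 16 were also called lower, where 10.8 percent of all genes were. In the other exposed groups 0 to 2 were called lower, where 1.58 to 12.8 percent of all genes were. The sums of the endothelial markers were 334 to 495 CPM in Maternal_10Cyp, 347 to 476 CPM in Paternal_10Cyp and 350 to 536 CPM in Ctrl. Of the 9 pericyte and smooth muscle markers, 3 were called lower in Maternal_10Cyp (20.4 percent of all genes), with sums of 177 to 242 CPM in Maternal_10Cyp and 187 to 292 CPM in Ctrl. In Paternal_10Cyp 2 of the 9 were called lower (10.8 percent of all genes), and 0 to 1 in the other exposed groups. The part of vessel cells in the lower levels was not tested.

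The genes next to Rnf213 on chromosome 11 gave calls in both directions. Within 100 kb on either side, 5 genes were tested. Eif4a3, an RNA helicase gene of the exon junction complex, was called higher in 5 of the 6 exposed groups, with 145 CPM in Maternal_10Cyp against 121 CPM in Ctrl (log2 difference 0.26 ± 0.06). In the 5 groups 10.5 to 20.4 percent of all genes were called higher. Slc26a11, an anion transporter gene, was called lower in Maternal_10Cyp at -0.48 ± 0.18, and Endov, an endonuclease gene, was called higher there at 0.16 ± 0.06. Sgsh and Nptx1 were called in none of the 6 groups. Exons of Rnf213 overlap those of the antisense gene A930037H05Rik and exons of Eif2ak2 those of an antisense lincRNA, neither of them analysed here, and the sources used here do not state whether the counting used strand.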

How the data were processed

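The deposited table holds estimated counts per gene as whole numbers for 76 libraries, not scaled between libraries. Per the submitters' processing notes the authors used Trim Galore 0.5.0, Salmon 1.10.1 and mm10. The annotation release, the step from transcripts to genes, the authors' filter on genes and the use of strand are not given in the sources used here. Gene IDs were matched to GENCODE M21 (GRCm38), which gave a symbol to 14810 of 14823 genes. The members and all lists were chosen with earlier results of these data known.

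All genes went into 1 model of the counts in edgeR 4.0.16 under R 4.3.3 (filterByExpr, TMM, robust quasi-likelihood fit) with group, batch and sex as terms and all 76 libraries in 1 fit. Library totals and the counts of low members bear on the precision, and their part in it beside the spread between libraries was not tested. Intervals are the log2 difference ± 1.96 SE. Fits with 1 library left out kept the genes and the dispersion trend of the full fit. Alternatives used DESeq2 1.42.0, limma 3.58.1 and sva 3.50.0. The test was checked on simulated counts, drawn independently for each library and without batch or other differences shared between libraries. For Maternal_10Cyp 24 of 50 genes changed 1.25-fold and 49 of 50 changed 2-fold were called, and 8 of 14139 unchanged genes. Since the simulation holds no shared differences between libraries, it cannot show how far such differences move the calls in the real data. No pair of libraries within a group held identical values.

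All 8 members are named. From each wider list up to 3 genes of lowest p in Maternal_10Cyp were eligible to be named, as were the 5 genes most like Rnf213 and its tested neighbours within 100 kb. Some genes that this rule names are not reported here.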

Additional observations from a re-analysis of the deposited data

How the results depend on the processing

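Of 48 comparisons of a member with Ctrl 16 were called, and over 13 alternative settings all 208 values of these kept their sign while 157 kept their call. The numbers of members called that moved by over 1.5 times were as follows. With limma voom, 0 were called in Paternal_0.3Cyp (2825 of all genes) and 4 between batches. With only the groups compared in the fit, 0 were called in Paternal_0.3Cyp (0 of all genes), 7 in Paternal_10Cyp (3884) and 2 in Both_10Cyp (557). In that setting 6 were called for the departure from additivity at dose 10. Without a batch term, 0 were called in Both_10Cyp (55 of all genes). With 2 surrogate variables, and likewise with batch 1 alone, 0 were called in each exposed group and 0 for the departure at dose 10. Over all genes the calls in the exposed groups were 0 to 59 and 0 to 465 in these settings. With batch 2 alone, 1 was called in Maternal_0.3Cyp (2313 of all genes), 1 in Both_0.3Cyp (1323) and 2 in Both_10Cyp (2142). That setting fitted only the libraries of batch 2, unlike the differences within batches given above, so the counts differ. With the log2 ratio of embryonic globin counts over adult ones as a covariate, 0 were called in Paternal_0.3Cyp, Maternal_0.3Cyp, Both_0.3Cyp and Both_10Cyp. Over all genes 44, 170, 10 and 132 were called there, against 3961, 3404, 3202 and 561 without the covariate. Without libraries 5 and 6 of Paternal_0.3Cyp, an alternative chosen after seeing the data, 4 were called in Paternal_0.3Cyp (3388 of all genes) and 5 in Paternal_10Cyp (3102). The cause of these shifts was not tested.

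With 1 library left out, the members called ranged from 0 to 2 in Paternal_0.3Cyp, 1 to 2 in Maternal_0.3Cyp, 0 to 4 in Both_0.3Cyp, 3 to 4 in Paternal_10Cyp and 0 to 3 in Both_10Cyp. Over all genes the calls ranged from 2249 to 4937, 2176 to 4606, 2030 to 4415, 1628 to 4260 and 27 to 2118 in these groups. The members called ranged from 0 to 1 between doses in paternal exposure (0 to 301 of all genes), from 3 to 4 for the departure at dose 10 and from 1 to 3 between batches. The counts over all genes also moved: in Both_10Cyp 561 genes were called, against 1052 with DESeq2, 954 with limma voom, 55 without a batch term and 2142 with batch 2 alone. In Maternal_10Cyp 5856 genes were called, against 0 with 2 surrogate variables and 465 with batch 1 alone. Between doses in paternal exposure 9 genes were called, against 58 with DESeq2 and 186 with limma voom, and in maternal exposure 0, against 6 and 421.

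Replicate numbers are shared between groups, but nothing in the labels says that they pair libraries. Same-numbered libraries deviated together with a median r of 0.00562 over 210 pairs, and 3 of 76 libraries correlated best with their own number. With the replicate block, 1 member was called in Maternal_0.3Cyp (3688 of all genes), 0 in Both_10Cyp (342) and 0 between batches. Under the same block the difference of Rnf213 between doses with both parents exposed was 0.056 (adjusted p = 0.991, edgeR), against -0.17 without it.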
